A study of Saccharomyces cerevisiae with 12 samples.

Results

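The deletion strain CEN.PK540-3A of the budding yeast Saccharomyces cerevisiae was compared under 2 growth regimes in continuous culture. It is a haploid, prototrophic MATa strain in which a loxP-flanked kanamycin marker replaces the gene LEU3, and it is the 1 deletion strain of the study. The comparison used 6 of the 12 arrays of the study, chosen by their titles. Of these, 3 came from nitrogen-limited cultures with glucose in excess (N-lim), and 3 came from carbon-limited cultures fed ethanol (C-lim). The 6 other arrays came from the MATa LEU3 strain CEN.PK113-7D under the same regimes, apart from the glucose feed given below. They served only to show where the deletion strain differed from its reference.

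The nitrogen-limited feed of the deletion strain held 1.0 g/l ammonium sulfate, 5.3 g/l potassium sulfate and 53 g/l glucose. The glucose was chosen so that about 17 g/l remained in the broth. For the reference strain that feed held 59 g/l glucose, with the same 17 g/l remaining. The part of this feed in differences between the strains was not tested. The carbon-limited feed held 5.0 g/l ammonium sulfate and 6.0 g/l ethanol. All cultures were aerated, held at 30 °C and pH 5.0 and diluted at 0.10 per h, so the cells grew at 1 rate in both regimes. Since ethanol goes with carbon limitation and glucose with nitrogen limitation, the parts of nutrient and carbon source in a difference cannot be told apart. The labels do not say whether the 3 arrays of a group came from separate cultures, so p-values measure the spread between these samples, which may be technical. The number of arrays limits the precision.

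Yeast given ample glucose ferments it and represses genes for the use of other carbon sources, for respiration and for the breakdown of fatty acids. On ethanol it must oxidise the alcohol to acetate, make acetyl-CoA, run the glyoxylate cycle and build sugars by gluconeogenesis, which activators such as Adr1 and Cat8 switch on once the kinase Snf1 is active. When good nitrogen sources are scarce, the GATA factors Gln3 and Gat1 relieve nitrogen catabolite repression and turn on permeases and enzymes for poor nitrogen sources. Leu3 is a zinc-cluster protein that binds alpha-isopropylmalate, an intermediate of leucine synthesis, and then activates genes of the branched-chain amino acid pathway.

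Values are linear probe set intensities as deposited. Intensities below 12 were set to 12 before taking log2, and a gene was tested when it exceeded 12 on at least 3 of the 6 arrays. Each log2 change below is nitrogen-limited minus carbon-limited with its standard error (SE) from limma, for 3 against 3 arrays. A gene was called at a Benjamini-Hochberg adjusted p under 0.05 over all genes tested. "At least" before a fold means that all 3 arrays of the dimmer group lay at or below 12, so that only a bound can be given.

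The 6 arrays were alike in their technical measures. Their median intensity ranged between 46.9 and 51.9, and 26.44% to 28.48% of probe sets lay below 12. The actin ratio of 3' over 5' probe sets, a sign of RNA integrity, was 1.85, 1.54 and 1.9 on nitrogen-limited arrays and 1.91, 1.87 and 1.71 on carbon-limited arrays. The same ratio for SPT15 was 3.31 to 4.09 under nitrogen limitation and 2.56 to 2.93 under carbon limitation, so it moved with the regime. Its part in the results was not tested. Rank correlations between arrays were 0.984 to 0.992 within the nitrogen-limited group, 0.987 to 0.989 within the carbon-limited group and 0.938 to 0.948 between the groups.

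The deleted gene LEU3 read 0.5, 0.4 and 0.3 on the nitrogen-limited arrays and 0.6, 0.5 and 0.6 on the carbon-limited arrays. All 6 values lay far below 12, so it was not tested. The MATa label of the deletion strain was checked against mating-type genes: STE2, the receptor for alpha factor, read 479.1, 565.7 and 503.4 under nitrogen limitation, against 134.1, 147.2 and 143.8 under carbon limitation. STE2 was thus bright in both regimes. The alpha-cell gene MF(ALPHA)1 read 28.8 to 47.4 in N-lim and 32.0 to 34.9 in C-lim. The second alpha-factor gene, MF(ALPHA)2, averaged 7.33 in N-lim and 7.07 in C-lim, below the floor. In the reference strain, also labelled MATa, MF(ALPHA)1 averaged 306 in N-lim and 21.8 in C-lim, so its nitrogen-limited arrays went against the label for this gene. Of 13 genes known for expression at low oxygen, DAN1 averaged 3.9 in N-lim and 2.23 in C-lim, below the floor, and ANB1 averaged 16.6 in each. Others were well above it, among them TIR1, at 73.7 in N-lim and 72.7 in C-lim, and the desaturase gene OLE1, at 852 in N-lim and 933 in C-lim.

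Of the 5217 genes tested, 2411 (46.2%) were called. Nitrogen limitation raised 1230 (23.6%) and lowered 1181 (22.6%), and the median change of all genes was 0.03. The counts of higher and lower genes in each list below are to be read against these shares. A change of at least 2-fold was found for 259 higher genes (4.96%) and 343 lower genes (6.57%). The decreases reached further than the increases, with 34 called genes at least 16-fold lower and 12 at least 16-fold higher. There were 9 genes at or below the floor on all 3 nitrogen-limited arrays and above 100 on all 3 carbon-limited arrays, and 1 gene (OPT2) with the opposite pattern. The arrays of the groups did not overlap for 55.1% of the genes tested.

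The 15 largest increases were led by glucose transporters and by genes for the use of poor nitrogen sources, and the 15 largest decreases by enzymes that handle ethanol, acetate and fatty acids. HXT1, a low-affinity hexose transporter, had the largest increase, at 5.97 ± 0.12 on the log2 scale (adjusted p = 4.78e-11). ADH2, the alcohol dehydrogenase that oxidises ethanol, had the largest decrease, at -7.63 ± 0.14, or 199-fold (adjusted p = 3.67e-11). All 30 genes were called under every one of the alternatives that gave them a value. Beside the genes of the families below, the increases held YJL213W (4.26 ± 0.13), the carbon-sulfur lyase gene IRC7 (4.17 ± 0.15) and QDR2 (3.65 ± 0.11), a drug transporter. The decreases also held RGI2 (-6.87 ± 0.12), a gene of energy metabolism under respiration, and YIG1 and YMR206W, which fell at least 56.6-fold and at least 41.3-fold.

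**Figure D1:**
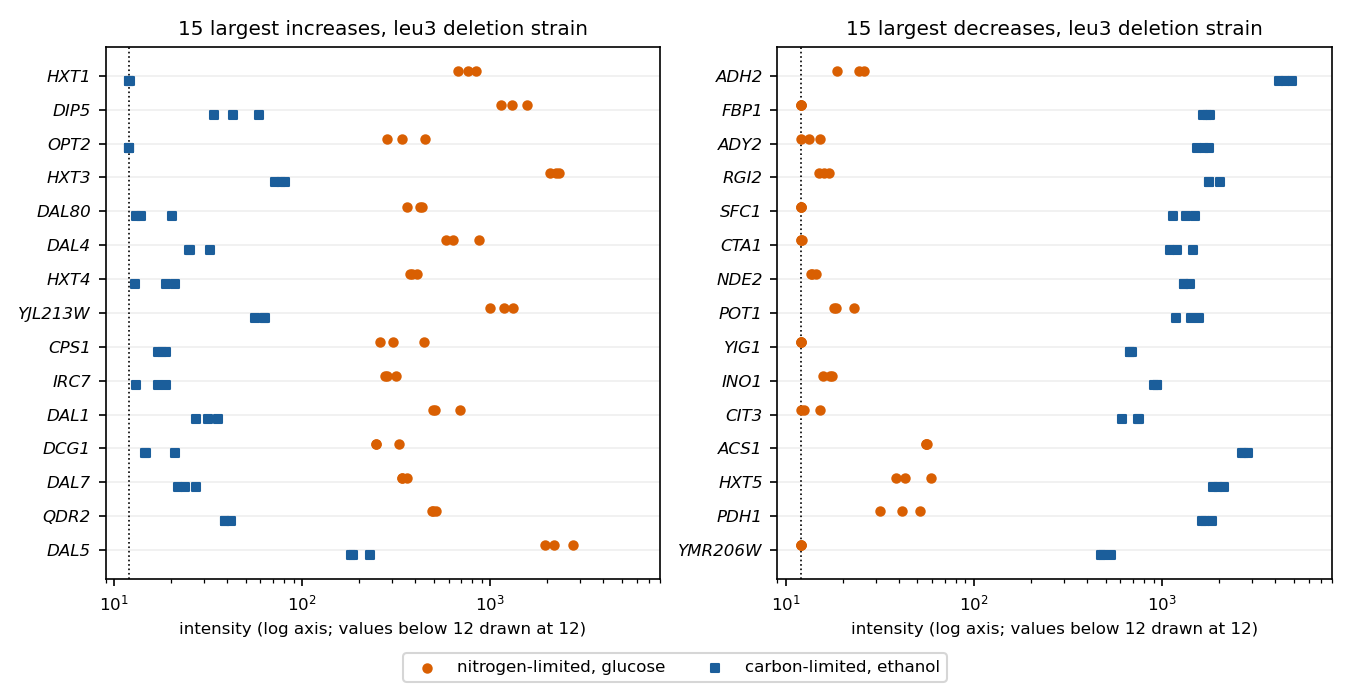
Intensity on a log axis for the 15 largest increases (left) and the 15 largest decreases (right) in the leu3 deletion strain, with each nitrogen-limited array as an orange circle and each carbon-limited array as a blue square; the dotted line marks the floor of 12. The genes were picked among called genes whose groups do not overlap, which holds for 55.1% of all genes tested. ADH2 sits between 18.7 and 25.9 under nitrogen limitation and between 4196.4 and 4902.5 under carbon limitation.

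The nitrogen genes were considered first. Among 27 tested targets of nitrogen catabolite repression, 22 rose and 2 fell, against 23.6% and 22.6% of all genes, and 15 of them rose at least 2-fold. Their median change was 1.19. The gene for the urea enzyme DUR1,2 was not analysed here.

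The allantoin genes gave the clearest block. DAL4, the allantoin permease, read 579.5, 867.5 and 636.1 under nitrogen limitation, against 32.5, 24.9 and 25.2 under carbon limitation. DAL1, the allantoinase, read 510.6, 686.4 and 498.1 in N-lim, against 31.5, 27.2 and 35.6 in C-lim. DAL7, a malate synthase of this pathway, read 339.0, 362.8 and 337.5 in N-lim, against 23.9, 21.9 and 27.2 in C-lim. In each of these genes the weakest nitrogen-limited array stood far above the strongest carbon-limited one. The log2 changes were 4.65 ± 0.17 for DAL4 (adjusted p = 5.35e-09), 4.16 ± 0.16 for DAL1 (adjusted p = 6.41e-09) and 3.84 ± 0.12 for DAL7 (adjusted p = 1.78e-09).

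These 3 genes lie in a row on chromosome IX with DAL2, DCG1 and DAL3. In gene order DAL1, DAL4, DAL2, DCG1, DAL7 and DAL3 rose by 4.16, 4.65, 2.06, 4.03, 3.84 and 1.33. DAL2 is the allantoicase and DAL3 the ureidoglycolate lyase that releases urea. The neighbours on either side were not called: YVH1 changed by 0.32 (adjusted p = 0.0656) and MGA2 by 0.13 (adjusted p = 0.684). The increase thus spanned 6 consecutive genes and neither flank.

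Outside the cluster, DAL5, a permease for allantoate and small peptides, read 2195.5, 1963.3 and 2742.6 under nitrogen limitation and 228.8, 186.4 and 181.3 under carbon limitation. Its groups were well separated, and it rose by 3.53 ± 0.15 (adjusted p = 1.9e-08). The gene has 3 probe sets, which gave 3.53, 4.87 and, for a dim set, 0.08. DIP5, the permease for glutamate and aspartate, read 1140.2, 1563.9 and 1303.7 in N-lim, against 34.0, 43.0 and 59.0 in C-lim. OPT2, of the oligopeptide transporter family, read 281.7, 340.3 and 448.4 in N-lim, against 0.6, 0.3 and 0.3 in C-lim. Both permeases were bright on every nitrogen-limited array and dim on every carbon-limited one. DIP5 rose by 4.91 ± 0.20 (adjusted p = 9.99e-09), and OPT2 rose at least 29.2-fold (adjusted p = 2.31e-09).

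Other targets rose less. The general amino acid permease gene GAP1 read 2235.5, 2089.5 and 2287.8 under nitrogen limitation and 1104.3, 1020.8 and 1009.0 under carbon limitation, a change of 1.08 ± 0.11 (adjusted p = 2.53e-05). It was bright in both regimes. The dipeptide transporter gene PTR2 rose by 1.84 ± 0.16, the permease gene for gamma-aminobutyrate UGA4 by 1.67 ± 0.15, the proline enzyme gene PUT2 by 1.23 ± 0.15 and the arginase gene CAR1 by 1.21 ± 0.15. CAR2, which follows arginase in arginine breakdown, fell by 0.47, and the proline permease gene PUT4 did not pass, at -0.28.

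Of 9 tested GATA factors and regulators, 6 rose and none fell, against 23.6% and 22.6% of all genes. DAL80, itself a GATA repressor whose gene is a known target of the activators, read 421.9, 361.6 and 432.8 under nitrogen limitation and 20.2, 13.1 and 13.9 under carbon limitation. It stood near the floor on ethanol and rose by 4.71 ± 0.17 (adjusted p = 4.47e-09). UGA3, the activator of the gamma-aminobutyrate genes, rose by 1.75 ± 0.12, GAT1 by 1.01 ± 0.18 and DAL82 by 0.76. GLN3 did not pass, at 0.31 ± 0.21 (adjusted p = 0.244), and neither did URE2, the cytoplasmic anchor of Gln3, at 0.30.

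Of 9 genes for ammonium transport and assimilation, 4 rose and 2 fell, against 23.6% and 22.6% of all genes. MEP3, a low-affinity ammonium permease gene, read 344.5, 414.9 and 349.0 under nitrogen limitation and 91.4, 70.5 and 73.5 under carbon limitation. It rose by 2.24 ± 0.14 (adjusted p = 4e-07), while the high-affinity permease gene MEP2 rose by 0.46 ± 0.12 and MEP1 did not pass, at -0.30. The glutamine synthetase gene GLN1 rose by 0.48. GDH3, which encodes the glutamate dehydrogenase isoform used on non-fermentable carbon, read 303.2, 398.5 and 375.6 in N-lim, against 1573.0, 1134.9 and 1258.2 in C-lim. It fell by 1.88 ± 0.16, and GDH2, the gene for the glutamate-degrading enzyme, fell by 1.29 ± 0.12. GDH1, the main biosynthetic isoform gene, did not pass, at 0.13 ± 0.12 (adjusted p = 0.422).

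A list of amino acid permeases and the SPS sensor of outside amino acids had 13 tested genes. Of these, 3 rose and 3 fell, close to the 23.6% and 22.6% of all genes. Besides permeases it holds the sensor genes SSY1, PTR3 and SSY5 and the transcription factor genes STP1 and STP2. The largest change was that of DIP5, which is also a nitrogen catabolite repression target. AGP3, a permease gene, read 11.3, 9.5 and 8.9 under nitrogen limitation and 126.5, 127.9 and 182.3 under carbon limitation, so that it fell by at least 3.58 on the log2 scale (adjusted p = 1.59e-08). TAT1, a permease for aromatic and branched-chain amino acids, fell at least 3.0-fold, but with a floor of 30 it changed by -0.26 and was not called. BAP2, the leucine permease gene, was near the floor in both regimes, at 12.7, 14.4 and 10.0 in N-lim, against 15.5, 13.5 and 14.4 in C-lim, and did not pass (adjusted p = 0.334).

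Genes for making fusel alcohols from amino acids and for ester metabolism, regulators included, rose in 7 of 15 cases and fell in 2. Of all genes, 23.6% rose and 22.6% fell. PDC5, a pyruvate decarboxylase that also accepts amino acid derived keto acids, read 989.5, 567.2 and 825.2 under nitrogen limitation and 78.0, 93.5 and 77.9 under carbon limitation. Although the nitrogen-limited arrays spread widely, none came near the carbon-limited ones, and PDC5 rose by 3.22 ± 0.19 (adjusted p = 2.43e-07). EEB1, which forms ethyl esters of medium-chain fatty acids, rose by 2.60 ± 0.13. Of the aromatic aminotransferase genes, ARO8 rose by 1.21 ± 0.12 and ARO9 fell by 1.23 ± 0.16. ARO10, the decarboxylase gene next in that route, did not pass, at -0.34 ± 0.13 (adjusted p = 0.0537).

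Glucose transport divided sharply. Of 11 tested transporter and sensor genes, 5 rose and 5 fell, 4 in each direction by at least 2-fold. HXT1 read 762.0, 835.9 and 675.5 under nitrogen limitation and 9.5, 12.1 and 6.7 under carbon limitation. HXT3, another low-affinity transporter, read 2315.0, 2070.5 and 2246.9 in N-lim, against 77.5, 80.8 and 71.5 in C-lim. HXT5, a transporter of slow-growing cells, read 43.1, 58.9 and 38.3 in N-lim, against 1863.2, 1972.1 and 2133.5 in C-lim. The transporters of high glucose were bright with glucose in excess and the slow-growth transporter was bright on ethanol, with no overlap between groups.

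HXT3 rose by 4.85 ± 0.12 (adjusted p = 1.86e-10), HXT4 by 4.50 ± 0.17 (adjusted p = 6.73e-09), and HXT5 fell by 5.43 ± 0.16 (adjusted p = 1.13e-09). For HXT1 the floor, which 2 carbon-limited arrays fell below, makes the printed change smaller. HXT4, HXT1 and HXT5 lie close together on chromosome VIII, so neighbours in the genome moved in opposite directions. The high-affinity transporter genes HXT6, HXT7 and HXT2 fell by 1.53 ± 0.12, 1.04 ± 0.12 and 0.77 ± 0.16. HXT6 and HXT7 are nearly identical in sequence, and their signals may be shared. Among the sensors, SNF3, which detects low glucose, fell at least 2.44-fold, and RGT2, which detects high glucose, did not pass, at -0.31. STD1, a partner of the repressor Rgt1, rose by 2.30 ± 0.12.

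Hexose kinase and glucose repression genes went both ways, with 5 of 14 higher and 6 lower, against 23.6% and 22.6% of all genes. MIG2, a repressor that acts with Mig1, read 85.0, 113.6 and 97.0 under nitrogen limitation and 10.0, 6.1 and 7.2 under carbon limitation. It rose at least 8.15-fold (adjusted p = 1.84e-08), MIG3 rose at least 2.91-fold, and MIG1 rose by 0.39 ± 0.12. REG2, a regulatory subunit of the phosphatase Glc7, read 31.0, 27.5 and 33.3 in N-lim, against 1055.8, 1048.2 and 903.5 in C-lim. It fell by 5.03 ± 0.13 (adjusted p = 2.57e-10), and SIP2, a beta subunit of the Snf1 kinase, fell by 3.66 ± 0.14. Of the kinases that phosphorylate glucose, HXK1 fell by 1.29 ± 0.14 and GLK1 by 1.05 ± 0.19, while HXK2, the main kinase on glucose, rose by 0.34 (adjusted p = 0.0441).

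Changes of the glycolytic enzymes were small. Of 15 tested, 6 rose, 1 fell and 8 did not pass, against 23.6% higher and 22.6% lower of all genes. Their median was 0.26. TDH1, a glyceraldehyde-3-phosphate dehydrogenase gene, rose by 1.32 ± 0.15 and the pyruvate kinase gene CDC19 by 0.73 ± 0.13. The genes for the 2 regulatory phosphofructokinases moved apart. PFK27 read 44.1, 32.5 and 56.5 under nitrogen limitation and 5.4, 10.4 and 5.4 under carbon limitation, a rise of at least 3.61-fold, and PFK26 fell by 0.89 ± 0.12. The triose and hexose steps TPI1, TDH3 and PGI1 had changes of 0.04, 0.03 and 0.18 and did not pass.

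Between pyruvate and acetyl-CoA, changes went both ways. Of 20 tested genes, 9 rose and 6 fell, against 23.6% and 22.6% of all genes, and all 6 falls were at least 2-fold. ADH2 read 25.9, 24.3 and 18.7 under nitrogen limitation and 4902.5, 4196.4 and 4491.5 under carbon limitation. ACS1, the acetyl-CoA synthetase repressed by glucose, read 56.1, 55.7 and 55.8 in N-lim, against 2874.5, 2730.1 and 2664.7 in C-lim. The groups were far apart in both genes, and the 3 nitrogen-limited arrays of ACS1 nearly coincided. ACS1 fell by 5.62 ± 0.11, and its isoenzyme ACS2 fell by 1.03 ± 0.12.

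The fermentative genes PDC1 and ADH1 rose by 1.09 ± 0.14 and 0.65 ± 0.12. The mitochondrial acetaldehyde dehydrogenase gene ALD4 fell by 2.72 ± 0.11, its cytosolic counterpart ALD6 fell by 1.26 ± 0.12 and the minor mitochondrial form ALD5 rose by 2.06 ± 0.12. ACH1, which transfers CoA to acetate, fell by 3.90 ± 0.13. The pyruvate dehydrogenase genes PDA1, PDB1, LAT1 and PDX1 lay between -0.22 and 0.14, and none passed.

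Gluconeogenesis and the glyoxylate cycle had the lowest median among lists of more than 5 tested genes. Of 18 tested genes, 15 fell, all by at least 2-fold, and none rose, against 22.6% and 23.6% of all genes. The median was -3.34. FBP1, the fructose-1,6-bisphosphatase, read 7.8, 9.4 and 7.3 under nitrogen limitation and 1731.5, 1641.4 and 1800.1 under carbon limitation. PCK1, which makes phosphoenolpyruvate from oxaloacetate, read 54.0, 105.7 and 68.2 in N-lim, against 3070.4, 2605.9 and 2696.5 in C-lim. ICL1, the isocitrate lyase of the glyoxylate cycle, read 96.9, 113.2 and 104.1 in N-lim, against 3558.1, 3479.9 and 3070.3 in C-lim. All 3 genes were dim on every nitrogen-limited array and bright on every carbon-limited one.

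FBP1 fell at least 144-fold (adjusted p = 2.98e-11), PCK1 fell by 5.25 ± 0.21 (adjusted p = 1.01e-08) and ICL1 fell by 5.01 ± 0.12 (adjusted p = 1.88e-10). The succinate-fumarate carrier gene SFC1 fell at least 110-fold, the cytosolic malate dehydrogenase gene MDH2 40.8-fold and the cytosolic isocitrate dehydrogenase gene IDP2 33.1-fold. MLS1, the malate synthase of the cycle, fell 4.85-fold. ADY2, an acetate transporter, read 10.9, 13.3 and 15.1 under nitrogen limitation and 1661.2, 1531.8 and 1763.9 under carbon limitation, and fell 123-fold. The lactate and pyruvate transporter gene JEN1 fell by 4.64 ± 0.15.

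The activators of these genes were lower as well. ADR1 read 7.5, 6.6 and 6.8 under nitrogen limitation and 97.9, 135.7 and 93.0 under carbon limitation, a fall of at least 8.94-fold, and CAT8 fell at least 4.55-fold. SIP4, a second activator of this route, fell by 3.42 ± 0.13, and RDS2 by 1.12 ± 0.18. The genes for pyruvate carboxylase and malic enzyme, which also serve growth on glucose, did not pass: PYC1 changed by -0.16, PYC2 by 0.16 and MAE1 by -0.25.

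**Figure D2:**
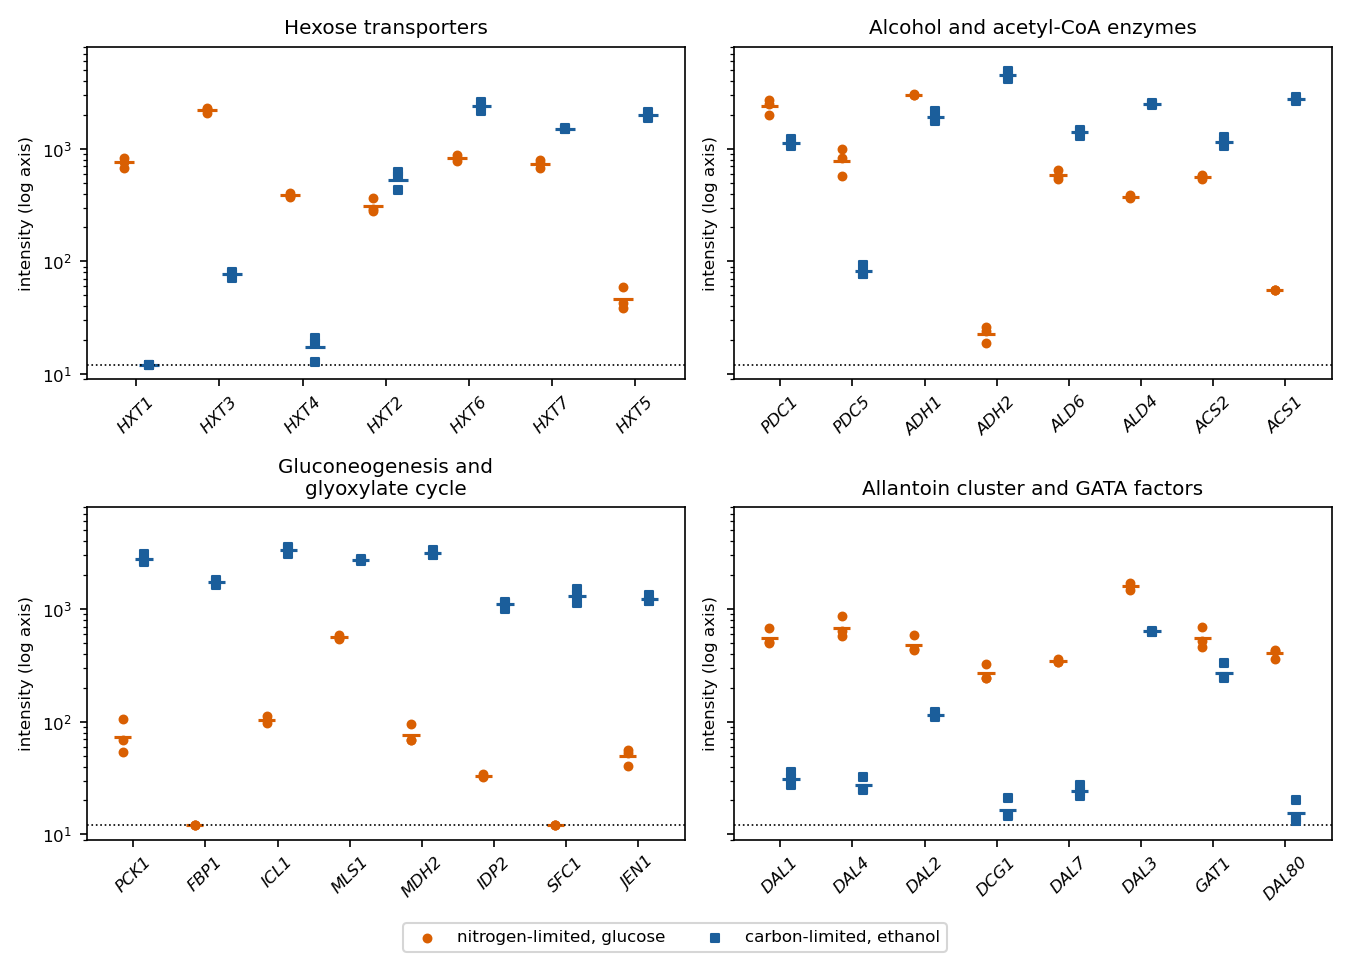
Intensity on a log axis for 4 gene families, with each nitrogen-limited array as an orange circle, each carbon-limited array as a blue square and the mean of log2 values as a bar; the dotted line marks the floor of 12. HXT1, HXT3 and HXT4 are higher and HXT5 lower under nitrogen limitation, and ADH2 and ACS1 stand far below their carbon-limited values while PDC1 and ADH1 stand above theirs.

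Genes for moving acetyl units fell with this route. The carnitine shuttle, which carries acetyl groups into mitochondria, had 4 of 5 tested genes lower and none higher. The carrier CRC1 fell by 5.30 ± 0.12, and the acetyltransferases CAT2, YAT1 and YAT2 fell by 5.22 ± 0.14, 4.97 ± 0.18 and 3.75 ± 0.11. The remaining tested gene, HNM1, a choline transporter with a side role in carnitine uptake, did not pass, at 0.18.

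The methylcitrate cycle, which breaks down propionyl-CoA, was lower too. CIT3, its citrate synthase, read 12.5, 15.2 and 10.3 under nitrogen limitation and 614.4, 748.2 and 754.0 under carbon limitation. PDH1, its dehydratase, read 31.5, 51.4 and 41.2 in N-lim, against 1842.2, 1627.6 and 1696.9 in C-lim. Neither gene's groups overlapped. CIT3 fell by 5.74 ± 0.14 (adjusted p = 1.88e-10), PDH1 by 5.41 ± 0.17 (adjusted p = 1.58e-09) and ICL2, the lyase of the cycle, by 3.25 ± 0.13. CIT3 and PDH1 are neighbours on chromosome XVI.

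All 16 tested genes of the tricarboxylic acid cycle fell, 10 of them at least 2-fold, with a median of -1.44. SDH1, the flavoprotein subunit of succinate dehydrogenase, read 153.1, 232.6 and 170.2 under nitrogen limitation and 1384.3, 1077.7 and 1404.6 under carbon limitation. It fell by 2.81 ± 0.17, while KGD1, of alpha-ketoglutarate dehydrogenase, fell by 1.88 ± 0.12 and the aconitase gene ACO1 by 1.69 ± 0.11. The succinate dehydrogenase and fumarase genes lay between -2.81 and -1.41. The smallest change was that of IDH2, at -0.48 ± 0.12, beside -0.76 for IDH1, both of isocitrate dehydrogenase. CIT3, counted in this list, belongs to the methylcitrate cycle.

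Respiration was lower by smaller amounts. Of 28 tested respiratory chain genes, 20 fell and 2 rose, with a median of -0.50, and of 17 ATP synthase genes, 14 fell and none rose, with a median of -0.60. NDE2, an external NADH dehydrogenase, was far outside this range, at 13.7, 14.5 and 13.6 under nitrogen limitation and 1300.6, 1398.8 and 1303.5 under carbon limitation. It fell 95.7-fold, against 2.30-fold for its isoenzyme NDE1 and 2.37-fold for the internal enzyme NDI1. HAP4, the activator subunit of the factor that drives respiratory genes, read 176.3, 184.5 and 212.3 in N-lim, against 567.6, 462.0 and 550.7 in C-lim. It fell by 1.46 ± 0.13 (adjusted p = 7.98e-06).

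The 2 respiratory genes that rose encode alternative isoforms, known for their expression at low oxygen. COX5B, an isoform of a cytochrome c oxidase subunit, read 46.7, 43.7 and 46.7 under nitrogen limitation and 4.0, 5.2 and 5.3 under carbon limitation, a rise of at least 3.81-fold. CYC7, isoform 2 of cytochrome c, rose by 1.81 ± 0.17. Their counterparts COX5A and CYC1 fell by 0.70 and 0.64, so both pairs of isoforms moved apart. Of 12 tested hypoxic genes, 2 rose and 5 fell, against 23.6% and 22.6% of all genes, and the coproporphyrinogen oxidase gene HEM13 fell by 0.53. The retrograde response list had 1 of 11 genes higher and 5 lower, against 23.6% and 22.6% of all genes. Besides the methylcitrate gene PDH1 the lower ones were ACO1, IDH1, IDH2 and the peroxisomal citrate synthase gene CIT2, at -1.21 ± 0.11.

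Peroxisomal fatty acid breakdown fell in 14 of 17 tested genes, 13 of them at least 2-fold, with a median of -2.70. CTA1, the peroxisomal catalase, read 12.2, 8.3 and 8.5 under nitrogen limitation and 1105.7, 1463.1 and 1201.3 under carbon limitation. POT1, the thiolase that ends each round of oxidation, read 18.0, 23.1 and 18.4 in N-lim, against 1189.7, 1428.9 and 1568.7 in C-lim. Both were close to or below the floor on every nitrogen-limited array. For CTA1 the floor, which 2 of these arrays fell below, makes the printed change smaller. CTA1 fell by 6.69 ± 0.13, POT1 by 6.14 ± 0.15 (adjusted p = 1.88e-10), the acyl-CoA oxidase gene POX1 at least 21.3-fold and the dienoyl-CoA reductase gene SPS19 by 4.07. The regulators OAF1 and PIP2 did not pass, at -0.03 and -0.05. FAA1, which activates fatty acids taken up for lipid synthesis, was the 1 member that rose, by 1.37 ± 0.17.

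In the pentose phosphate pathway 5 of 11 genes rose and 5 fell, against 23.6% and 22.6% of all genes, and some isoforms separated. The minor isoform genes GND2, TKL2 and NQM1 fell by 2.84 ± 0.15, 1.43 and 1.74. Other probe sets of TKL2 gave -2.52 and -1.86. The major forms GND1, TKL1 and TAL1 rose by 1.00 ± 0.12, 0.43 and 0.82, and the entry enzyme gene ZWF1 rose by 1.21 ± 0.14. RKI1, the ribose-5-phosphate isomerase, was an exception with no isoform, at 62.7, 57.0 and 62.7 under nitrogen limitation against 337.9, 354.8 and 366.3 under carbon limitation, and fell by 2.54 ± 0.11.

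Of 10 tested glycerol genes, 3 rose and 7 fell, against 23.6% and 22.6% of all genes. Uptake and use fell most, with the glycerol kinase gene GUT1 lower by 3.63 ± 0.14, the uptake symporter gene STL1 by 3.07 ± 0.15 and the mitochondrial dehydrogenase gene GUT2 by 2.53 ± 0.13. The synthesis genes GPP2, GPD1 and GPP1 rose by 1.25 ± 0.14, 0.62 ± 0.13 and 0.37, although GPD2 fell by 0.60.

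Reserve carbohydrate and stress genes were mostly lower. Of 7 trehalose genes 5 fell and 1 rose, and of 13 glycogen genes 9 fell and none rose. Of all genes, 22.6% fell and 23.6% rose. The acid trehalase gene ATH1 fell by 1.86 ± 0.13 and TPS3, a regulatory subunit of the synthase, rose by 1.05 ± 0.14. The glycogen primer gene GLG2, the branching enzyme gene GLC3 and the phosphoglucomutase gene PGM2 fell by 1.80 ± 0.12, 1.74 ± 0.16 and 1.65. Synthesis and breakdown were not separated, since the glycogen synthase gene GSY2 fell by 0.77 and the phosphorylase gene GPH1 by 0.67.

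Among 14 general stress genes, 9 fell and 2 rose, against 22.6% and 23.6% of all genes. HSP26, a small heat shock protein gene, read 81.1, 80.0 and 67.8 under nitrogen limitation and 1121.4, 1166.7 and 1306.8 under carbon limitation. HSP26 fell by 3.97 ± 0.13, the hydrophilin gene GRE1 fell by 3.91 ± 0.13 and DDR2 fell by 2.77 ± 0.12. MSN4, which encodes a transcription factor of the stress response, rose by 1.46 ± 0.14, and MSN2 did not pass, at -0.11. The chaperone genes HSP104 and HSP42 did not pass either, at -0.22 and -0.40.

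**Figure D3:**
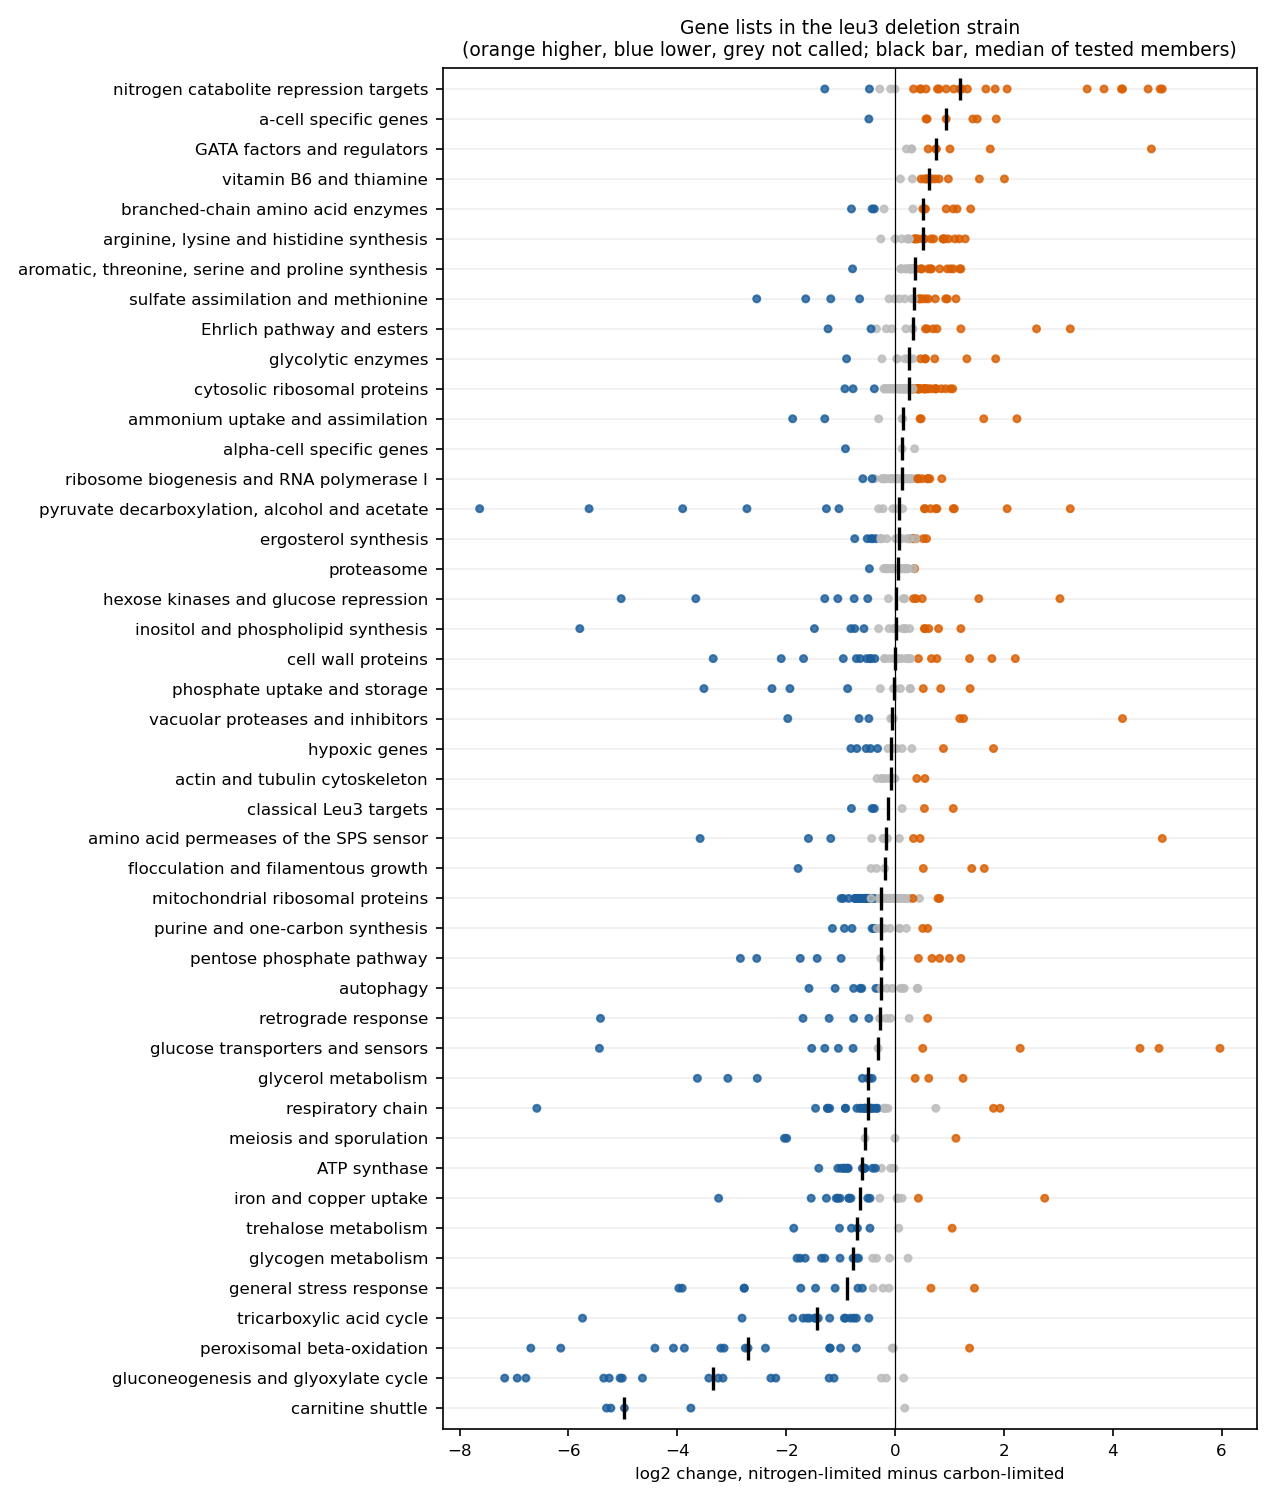
Log2 change, nitrogen-limited minus carbon-limited, for every tested member of 45 gene lists in the leu3 deletion strain, 1 point per gene; orange points were called higher, blue points lower and grey points not called, and a black bar marks each list's median. Nitrogen catabolite repression targets have a median of 1.19 at the top, and gluconeogenesis and the carnitine shuttle have medians of -3.34 and -4.97 at the bottom.

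Genes for making amino acids were more often higher than lower. Of 22 tested genes for arginine, lysine and histidine, 16 rose and none fell, with a median of 0.52. The largest were ARG8, an ornithine-pathway aminotransferase gene, at 1.29 ± 0.13, the ornithine carrier gene ORT1 at 1.18 ± 0.11 and the histidine enzyme gene HIS5 at 1.10 ± 0.14. Of 26 genes for aromatic amino acids, threonine, serine, asparagine and proline, 13 rose and 1 fell. The chorismate mutase gene ARO7 rose by 1.21 ± 0.12, SER2, for the last step of serine synthesis, by 1.19 ± 0.17 and TRP3, of the tryptophan branch, by 1.07 ± 0.11. TRP1 of the same branch was the 1 gene that fell, by 0.78 ± 0.13. Of 16 purine and one-carbon genes, 2 rose and 6 fell, against 23.6% and 22.6% of all genes. The glycine cleavage genes GCV1 and GCV2, which release ammonium from glycine, fell by 1.15 ± 0.12 and 0.93 ± 0.12.

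The branched-chain amino acid enzymes are the pathway that Leu3 serves. In the strain without Leu3, 7 of 12 tested genes rose and 3 fell, against 23.6% and 22.6% of all genes, with a median of 0.52. Of the isoleucine and valine genes, ILV1, ILV2, ILV3 and ILV5 rose. ILV2, the acetolactate synthase, read 719.1, 840.2 and 820.1 under nitrogen limitation and 375.4, 348.4 and 410.7 under carbon limitation. ILV3, the dihydroxyacid dehydratase, read 1276.2, 1314.4 and 1373.0 in N-lim, against 562.2, 747.3 and 516.1 in C-lim. The groups did not overlap in either gene. ILV2 rose by 1.07 ± 0.12 (adjusted p = 5.18e-05), ILV3 by 1.14 ± 0.15 (adjusted p = 0.000128), ILV5 by 0.54 ± 0.13 (adjusted p = 0.0076) and the threonine deaminase gene ILV1 by 0.51 ± 0.11 (adjusted p = 0.00368). ILV6, the regulatory subunit of acetolactate synthase, did not pass, at -0.20 ± 0.19 (adjusted p = 0.413).

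Genes of the leucine branch moved both ways. LEU1, the isopropylmalate isomerase, read 195.5, 174.6 and 200.5 under nitrogen limitation and 298.2, 396.4 and 306.7 under carbon limitation. It fell by 0.80 ± 0.14 (adjusted p = 0.000909). LEU2, the dehydrogenase that follows it, read 449.9, 505.0 and 444.9 in N-lim, against 665.8, 598.3 and 562.0 in C-lim. LEU4, the main alpha-isopropylmalate synthase, read 1419.7, 1729.0 and 1498.6 in N-lim, against 2229.3, 1986.1 and 1970.7 in C-lim. Neither gene's groups overlapped, but the gaps were small. LEU2 changed by -0.38 ± 0.12 (adjusted p = 0.0251) and LEU4 by -0.42 ± 0.12 (adjusted p = 0.0194), and both lost their call without nitrogen-limited array 1 (LEU4 -0.35), nitrogen-limited array 3 (LEU4 -0.39) or carbon-limited array 1 (LEU2 -0.32, LEU4 -0.36). LEU2 also lost it without carbon-limited array 2.

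LEU9, the minor synthase, rose by 0.94 ± 0.11 (adjusted p = 7.1e-05), opposite to LEU4. OAC1, a mitochondrial carrier that exports alpha-isopropylmalate, read 649.3, 659.3 and 602.7 under nitrogen limitation and 279.3, 227.7 and 226.8 under carbon limitation, and rose by 1.39 ± 0.13 (adjusted p = 8.63e-06). Of the branched-chain aminotransferases, the cytosolic BAT2 rose by 0.56 ± 0.13 and the mitochondrial BAT1 did not pass, at 0.33 ± 0.15 (adjusted p = 0.102), although it was called without carbon-limited array 2, at 0.47. Of the 6 genes best known as Leu3 targets, ILV2 and ILV5 rose, LEU1, LEU2 and LEU4 fell, and GDH1 did not pass.

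The reference strain allowed these genes to be set beside cells with Leu3. There the same contrast gave -0.47 for ILV2, -0.04 for ILV3, -0.73 for ILV5, -0.42 for LEU9, -0.39 for BAT2 and -1.77 for LEU4. In that strain ILV3 (adjusted p = 0.858) and LEU9 (adjusted p = 0.0573) did not pass. The difference between the limitation effects, deletion strain minus reference strain, was called for these 6 of the 12 genes and was positive in each. Over all genes it was positive and called for 5.24% (279 genes, or 614 after centring) and negative and called for 13.1%. It was 1.54 ± 0.20 for ILV2 (adjusted p = 0.000274), 1.36 ± 0.20 for LEU4 (adjusted p = 0.000571), 1.36 ± 0.25 for LEU9, 1.27 ± 0.23 for ILV5, 1.17 ± 0.21 for ILV3 and 0.95 ± 0.21 for BAT2. All 6 were still called after centring and without the carbon-limited reference arrays 2 and 3 described below. LEU1 had -0.37 (adjusted p = 0.0891) in the reference strain and LEU2 had -0.34 (adjusted p = 0.0543), and neither passed. Their differences between the strains of -0.43 (adjusted p = 0.237) and -0.04 (adjusted p = 0.902) did not pass either.

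**Figure D4:**
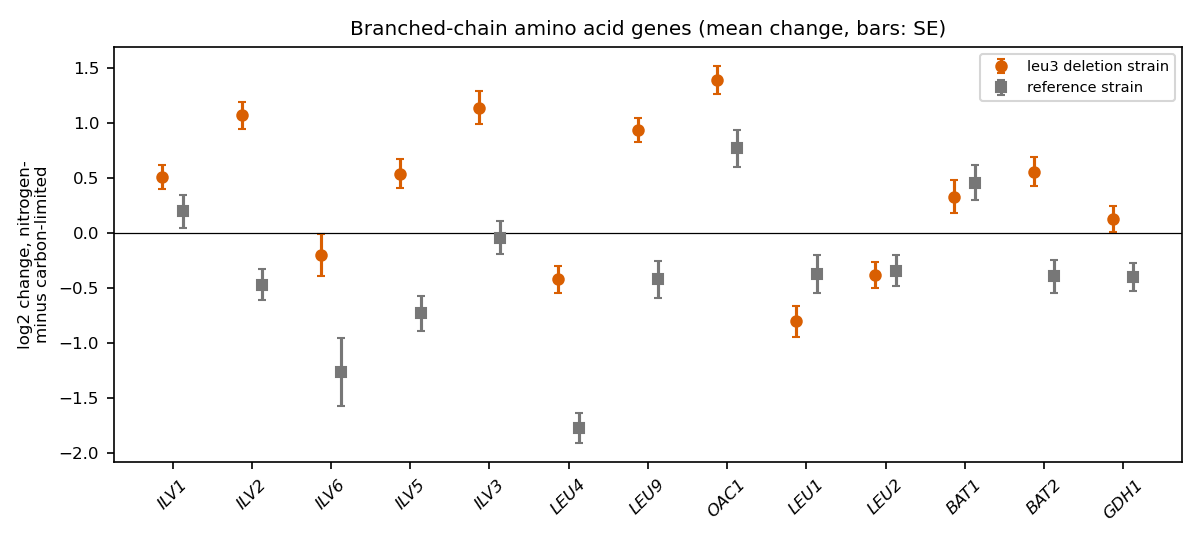
Log2 change, nitrogen-limited minus carbon-limited, for 13 branched-chain amino acid and Leu3 target genes in the leu3 deletion strain (orange circles) and the reference strain (grey squares), as the mean change with its SE. ILV2, ILV5, LEU9 and BAT2 lie above 0 in the deletion strain and below 0 in the reference strain, and LEU1 and LEU2 lie below 0 in both. The reference changes of LEU9, LEU1 and LEU2 did not pass.

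Sulfur, phosphate and metal genes moved in smaller groups. Of 20 tested sulfate and methionine genes, 9 rose and 4 fell, against 23.6% and 22.6% of all genes. Of the falls, 3 were of at least 2-fold, in transport or salvage genes. MMP1, the permease for S-methylmethionine, read 74.8, 71.1 and 84.3 under nitrogen limitation and 445.3, 437.0 and 451.1 under carbon limitation, and fell by 2.54 ± 0.12. MHT1, which uses that compound to make methionine, fell by 1.64 ± 0.14, and the methionine permease gene MUP1 by 1.18 ± 0.14. The sulfate reduction gene MET16 rose by 1.12 ± 0.11. The feeds also differed in their sulfate salts, as given above.

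Of 13 tested phosphate genes, 3 rose and 4 fell, near the 23.6% and 22.6% of all genes. PHO89, a sodium-phosphate symporter gene, read 41.7, 41.0 and 33.9 under nitrogen limitation and 404.5, 413.7 and 508.1 under carbon limitation, and fell by 3.51 ± 0.14. The high-affinity transporter gene PHO84 fell by 2.26 ± 0.21 and PHO4, the activator of the pathway, by 1.93 ± 0.12. The median of the list was -0.01 and became 0.03 after centring.

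Iron and copper uptake had 11 of 18 tested genes lower and 2 higher, against 22.6% and 23.6% of all genes. CTR3, a high-affinity copper transporter, read 143.4, 203.3 and 147.3 under nitrogen limitation and 1736.7, 1440.7 and 1458.6 under carbon limitation, and fell by 3.24 ± 0.16. The high-affinity iron genes FTR1 and FET3 fell by 1.26 and 1.08 ± 0.15, and the wall siderophore protein gene FIT2 by 1.54 ± 0.12. FET4, the low-affinity transporter of iron and other metals, was opposite, at 84.0, 81.2 and 76.9 in N-lim, against 7.2, 7.8 and 7.0 in C-lim, a rise of at least 6.72-fold (adjusted p = 9.87e-09).

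Vitamin B6 and thiamine genes rose in 10 of 12 tested cases, and none fell. BUD16, a putative pyridoxal kinase gene, rose by 2.01 ± 0.14, SNO1, of pyridoxal phosphate synthesis, by 1.55 ± 0.14 and the thiamine transporter gene THI7 by 0.98 ± 0.16.

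Lipid synthesis was dominated by 1 gene. INO1, the inositol phosphate synthase, read 17.6, 17.1 and 15.7 under nitrogen limitation and 935.1, 906.1 and 939.9 under carbon limitation. The groups lay far apart with little spread, and INO1 fell by 5.79 ± 0.11, or 55.2-fold (adjusted p = 3.67e-11). Of 19 genes of inositol and phospholipid synthesis, INO1 included, 5 rose and 5 fell, near the 23.6% and 22.6% of all genes. The regulator genes OPI1 and INO2 fell by 1.48 ± 0.12 and 0.81 ± 0.19, and the phosphatidylinositol synthase gene PIS1 rose by 1.21 ± 0.13. Ergosterol synthesis had 5 of 23 genes higher and 5 lower, also near those shares, and none by 2-fold.

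Most called genes of protein synthesis changed by less than 2-fold. Of 81 tested genes in the list of cytosolic ribosomal proteins, 28 rose and 3 fell, against 23.6% and 22.6% of all genes. The list had a median of 0.25 and 2 genes past 2-fold. It also holds RPP1, a ribonuclease P gene that is not a ribosomal protein gene. Many ribosomal protein genes have near-identical copies, and 81 of the 138 listed had a probe set of their own here. RPS28B and RPS1B, the largest rises at 1.06 ± 0.17 and 1.02 ± 0.23, were read by probe sets that can share sequence with a copy. Mitochondrial ribosomal protein genes leaned the other way, with 28 of 74 lower and 3 higher, against 22.6% and 23.6% of all genes. Their median was -0.25. Of 34 ribosome biogenesis genes 7 rose and 2 fell, against 23.6% and 22.6% of all genes, and RRN3, an initiation factor of RNA polymerase I, rose by 0.86 ± 0.14.

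The proteasome had 31 of 33 genes not called, a smaller called share than the 46.2% of all genes. Its range was -0.47 for RPN10 to 0.36 for RPT4. Autophagy had 6 of 17 genes lower and none higher, against 22.6% and 23.6% of all genes. ATG7, the activating enzyme, led them at -1.58 ± 0.14. ATG8, the membrane-bound marker of the process, did not pass, at -0.31. Of 9 genes for vacuolar proteases and their inhibitors, 3 rose and 3 fell, against 23.6% and 22.6% of all genes. CPS1, a carboxypeptidase, read 259.7, 302.6 and 442.2 under nitrogen limitation and 18.8, 17.2 and 18.0 under carbon limitation. It rose by 4.18 ± 0.18 (adjusted p = 1.72e-08), DAP2 rose by 1.26 ± 0.13 and APE1 by 1.19 ± 0.13. The main proteinase genes PEP4 and PRB1 did not pass, at -0.05 and -0.08, and PAI3, an inhibitor of proteinase A, fell by 1.97 ± 0.13.

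Genes of the a mating type rose in 6 of 7 cases. STE2 rose by 1.86 ± 0.12 (adjusted p = 4.59e-07), the a-factor gene MFA1 by 1.51 ± 0.14 and the a-factor exporter gene STE6 by 1.43 ± 0.16, while ASG7 fell by 0.48. Of 3 tested alpha-cell genes, STE3, the receptor for a-factor, fell at least 1.88-fold (9.1 to 11.3 in N-lim, against 21.2 to 23.7 in C-lim), and MF(ALPHA)1 (0.13) and SAG1 (0.36) did not pass. Of 5 tested meiosis genes, 1 rose and 2 fell, and of 7 genes for flocculation and filamentous growth, 3 rose and 1 fell, against 23.6% and 22.6% of all genes. IME1, the inducer of meiosis, read 26.6, 35.6 and 26.3 under nitrogen limitation and 130.5, 125.4 and 94.9 under carbon limitation, and fell by 1.99 ± 0.17. RIM4, another meiotic regulator, fell by 2.03 ± 0.15. Of the filamentation factors, TEC1 fell by 1.78 ± 0.13 and PHD1 rose by 1.64 ± 0.13.

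Cell wall genes had 6 of 29 higher and 10 lower, against 23.6% and 22.6% of all genes. CWP1, a wall mannoprotein, read 44.7, 58.0 and 58.2 under nitrogen limitation and 600.1, 504.4 and 514.0 under carbon limitation, and fell by 3.34 ± 0.14. SED1 fell by 2.09 ± 0.11, whereas DSE1, which is expressed in daughter cells, rose by 2.21 ± 0.23 and SPI1 by 1.78 ± 0.13. The actin and tubulin genes had 2 of 10 higher, near the 23.6% of all genes, and 8 not called. ACT1 was at -0.08 ± 0.11.

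The last comparison asked where the limitation effect of the deletion strain departed from that of its reference. In the reference strain 47.6% of 5321 genes were called. Across the 5217 genes tested in both strains the changes had a Pearson correlation of 0.78 and a Spearman correlation of 0.56, given as a description across genes, which are not replicates. The strains share no arrays. Called the same way in both were 1281 genes, which is 53.1% of the deletion strain's calls and 51.1% of the reference strain's, and 120 were called in opposite directions. Of the 602 genes at least 2-fold changed in the deletion strain, 550 had the same direction in the reference strain and 473 were also called there.

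Carbon-limited reference arrays 2 and 3 stood apart, with actin 3' to 5' ratios of 9.27 and 13.98. The deletion strain's arrays had 1.54 to 1.91. The rest of the reference strain lay above that range too: carbon-limited array 1 had 3.31, and N-lim had 2.45, 2.55 and 3.29. The interaction was also computed without arrays 2 and 3, which left the ratio higher in the reference strain. The part of this ratio in the interaction was not tested beyond that fit. The correlations and shared calls of the strains above were computed only with arrays 2 and 3 included. The interaction, deletion strain minus reference strain, was called for 976 genes (18.3%), of which 279 (5.24%) were positive and 697 (13.1%) negative. Without those arrays it was called for 642. The split depended on scaling: after centring each array on its median, 614 were positive and 241 negative, and 520 genes were called the same way with and without centring. The median interaction was -0.20, and 0.11 after centring, so single genes are read against that shift.

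QDR2 had the largest positive interaction. It read 497.6, 516.4 and 492.5 under nitrogen limitation and 38.9, 42.0 and 39.0 under carbon limitation in the deletion strain. In the reference strain it read 13.5, 13.8 and 12 in N-lim, against 46.2, 38.2 and 36.0 in C-lim. The carbon-limited arrays of both strains were alike, and the nitrogen-limited arrays lay on opposite sides of them. The interaction was 5.26 ± 0.19 (adjusted p = 1.43e-10), and 5.47 without reference arrays 2 and 3.

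SNO1 showed the same form, with 332.7, 453.3 and 336.9 in N-lim against 123.2, 135.7 and 122.0 in C-lim for the deletion strain. The reference strain had 12.6, 12.6 and 14.8 in N-lim against 97.9, 79.7 and 167.4 in C-lim. Its interaction was 4.59 ± 0.31 (adjusted p = 3.06e-07). SNZ1, its neighbour and partner in vitamin B6 synthesis, rose by 0.58 in the deletion strain and changed by -1.93 in the reference strain. The other large positive interactions belonged to genes whose change was less negative in the deletion strain: YAR068W (3.44 ± 0.24), SPG4 (3.34 ± 0.23) and ARO10 (3.12 ± 0.20). SPG4 and ARO10 were at or below the floor on all nitrogen-limited reference arrays, so their interactions are smaller as printed than without a floor.

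On the negative side, MF(ALPHA)1 read 47.4, 36.7 and 28.8 under nitrogen limitation and 34.9, 32.0 and 34.2 under carbon limitation in the deletion strain. In the reference strain it read 270.0, 289.9 and 356.6 in N-lim, against 25.8, 17.9 and 21.7 in C-lim. Only the nitrogen-limited reference arrays were high, although the reference strain is also labelled MATa and MF(ALPHA)1 is an alpha-cell gene. The a-cell gene STE2 averaged 672 in N-lim and 112 in C-lim of that strain. The limitation effect on MF(ALPHA)1 differed between the strains, and the interaction was -3.68 ± 0.27 (adjusted p = 4.26e-07). INO1 fell in both strains, with changes of -5.79 in the deletion strain and -2.17 in the reference strain, an interaction of -3.62 ± 0.21. PHO84 was the phosphate gene with the largest difference, at -2.87 ± 0.32, and TLD1 and YCL048W-A had -2.94 ± 0.32 and -2.85 ± 0.38. These 10 genes were called with and without centring and without reference arrays 2 and 3.

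**Figure D5:**
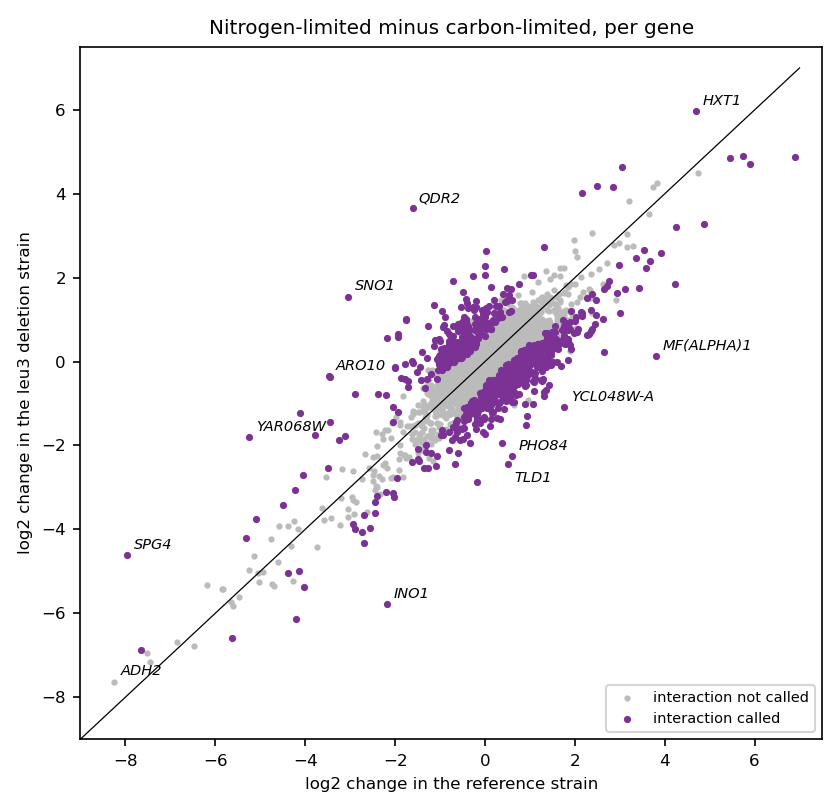
Log2 change, nitrogen-limited minus carbon-limited, of each gene in the leu3 deletion strain (vertical axis) and in the reference strain (horizontal axis); purple genes have a called interaction, grey genes do not, and the line marks equal change. QDR2 and SNO1 lie above the line with changes of 3.65 and 1.55 in the deletion strain, and INO1 and MF(ALPHA)1 lie below it.

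The cytosolic ribosomal protein list, RPP1 included, also sat differently in the strains. Its median change was 0.25 in the deletion strain and -0.26 in the reference strain. The interaction was positive and called for 25 of 81, and none was negative. That count was 53 after centring and 8 without reference arrays 2 and 3. The high actin ratios of those arrays move with this result, and their part in it was not tested beyond that count.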

How the data were processed

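The authors' deposited table gives 1 linear intensity per probe set and array for 1-channel Affymetrix arrays, scaled by the authors so that each array's mean without its outer 2% lies between 150.1 and 150.14. The software and the background treatment were not given in the sources used here. Of 9335 probe sets, 6504 were assigned to 1 gene by the platform table and covered 5656 genes; for 315 genes with several, the set with the highest mean log2 over 12 arrays was used. Values under 12 were set to 12 and log2 was taken. The 6 arrays were fitted alone with lmFit and eBayes of limma 3.58.1 under R 4.3.3, since the reference arrays spread more (median SD 0.18 and 0.25, against 0.15 in both groups of the deletion strain). The reference contrast and the interaction used all 12 arrays and 5321 genes. Tests were two-sided and adjusted by Benjamini-Hochberg over all genes tested. Only the fit of the 6 arrays was also run on simulated data, and not the interaction or the reference contrast.

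Named genes were LEU3, all Leu3 targets and branched-chain enzymes, the 15 largest changes each way among called genes without overlap, up to 4 called members a list and the 5 largest interactions each way. Other list members were named for their role after their values were seen. The members and the 45 lists were chosen with earlier results of these data known. Gene order came from RefSeq's R64 assembly. Array numbers were not treated as pairs, since deviations of same-numbered arrays correlated at -0.04, -0.24 and -0.15. Alternatives covered the floor, filter, scaling, probe set choice, fit and each array left out.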

Additional observations from a re-analysis of the deposited data

Results flagged for a closer look

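Flagging covered the Leu3 targets, the branched-chain enzymes, the largest changes each way and the largest interactions each way. For 29 of these genes the effect of the limitation differed between the strains by the interaction term in limma. Over all genes, that term was called for 976 of 5321 (18.3%). The largest interactions each way were picked by the same term. Neither the count of 29 nor its split by sign can therefore be set against that share. The term was deletion strain minus reference strain, over 12 arrays. LEU3 and genes named only as members of other lists were not counted. Some of them had called interactions, such as ARO9 (2.89) and EEB1 (-1.33). Of the 29 interactions counted, 17 were positive and 12 negative. After centring each array, 26 were still called (not DIP5, HXT3 or NDE2). Without carbon-limited reference arrays 2 and 3, which have high actin 3' to 5' ratios, 25 were still called (not DIP5, HXT3, CPS1 or RGI2). Both conditions were met by 24.

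Branched-chain genes were positive, with 1.54 for ILV2, 1.36 for LEU4, 1.36 for LEU9, 1.27 for ILV5, 1.17 for ILV3 and 0.95 for BAT2. Nitrogen genes divided. DCG1 had 1.88, CPS1 1.68, DAL4 1.59 and IRC7 1.32, while OPT2 had -2.02, DAL80 -1.19 and DIP5 -0.85. The glucose transporter genes HXT1 and HXT3 had 1.27 and -0.60. HXT1 read 762.0, 835.9 and 675.5 in nitrogen-limited deletion cultures and 300.9, 316.8 and 321.6 in nitrogen-limited reference cultures, so both strains were high and the deletion strain higher.

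Among genes that fell, POT1 had -1.93, YMR206W -1.35, NDE2 -0.95 and RGI2 0.79. The largest positive differences were 5.26 for QDR2, 4.59 for SNO1, 3.44 for YAR068W, 3.34 for SPG4 and 3.12 for ARO10. The largest negative ones were -3.68 for MF(ALPHA)1, -3.62 for INO1, -2.94 for TLD1, -2.87 for PHO84 and -2.85 for YCL048W-A. TLD1 read 127.8, 139.1 and 119.8 in N-lim and 142.5, 74.3 and 69.1 in C-lim of the reference strain, so its reference groups overlapped. For OPT2, YMR206W, RGI2, SPG4 and ARO10 every array of 1 or more groups lay at or below the floor of 12, and their printed interactions depend on it.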

How the results depend on the processing

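Counts of called genes in the deletion strain kept their size (within 1.5 times of 2411) under every alternative except a stricter test. Against a 1.5-fold change, limma's treat called 576 genes, 251 higher and 325 lower, and 602 were both called and at least 2-fold. Leaving out single arrays gave 1896 to 2411 calls (961 to 1179 higher, 927 to 1232 lower). The shared array numbers, which do not pair the samples, were also fitted as a block: the replicate block gave 2231 calls, 857 interactions and 2421 calls in the reference strain. The interaction (976 calls, 279 higher and 697 lower) moved with scaling, to 614 higher and 241 lower after centring, and without carbon-limited reference arrays 2 and 3 (chosen after seeing the data) to 642 calls, 440 of them lower. Single arrays moved it between 644 (without nitrogen-limited array 3 of the deletion strain) and 1409, with 200 to 389 higher and 435 to 1020 lower. Without carbon-limited array 2 of the deletion strain, 452 were lower. The reference contrast had 1553 calls without its carbon-limited arrays 2 and 3. Of 3314 values for single genes under an alternative, 3227 kept direction and call, 83 lost the call, 4 gained it and 0 reversed. LEU2 lost its call under the block, without either carbon-limited array 1 or 2, or without nitrogen-limited array 1 or 3. Beside the stricter test, which both also missed, INO2 lost its call in the fit with all 12 arrays. The cause of these changes was not tested. Values near the floor of 12 carry no order.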
